A study of Homo sapiens with 3 samples.

Results

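The RGS genes described here number 10 of 19775 named on the array, covered by 35 of 54613 probe sets, and were measured on 3 arrays of SK-Mel-28 cells, an established human melanoma line. The members are RGS1, RGS2, RGS3, RGS4, RGS5, RGS10, RGS12, RGS16, RGS19 and RGS20, and every probe set that the platform annotation assigns to 1 of them was taken. The group was put together because of the low RGS2 signal on the siRNA arrays, so the differences of these members are a description and carry no test. RNA came from cells stably transfected with the pSilencer 3.1-H1 neo vector. In 1 sample the vector held a scrambled hairpin, and in 2 samples it held a hairpin against the mRNA of melanotransferrin (MTf, gene symbol MELTF), an iron-binding protein of the melanoma cell surface. The labels call the siRNA samples B1 and B2, here siRNA array 1 and siRNA array 2, without saying whether they are separate clones or cultures, so any p-value measures a spread that may be technical.

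RGS proteins are regulators of G protein signalling. A receptor of the G protein coupled class loads a G alpha subunit with GTP, and an RGS protein speeds the hydrolysis of that GTP and so ends the signal. RGS1, RGS2, RGS3, RGS4, RGS5 and RGS16 belong to the R4 subfamily, most of whose members are small proteins with little beyond the RGS domain. RGS10 and RGS12 belong to the R12 subfamily, and RGS19 and RGS20 to the RZ subfamily, whose members carry a cysteine string. RGS2 stands out in this family because it acts by preference on Gq, the G protein that activates phospholipase C beta, and its transcript is known to be induced quickly by hormones and by cyclic AMP.

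Signals are linear intensities, 1 per probe set and array, and the arrays share a mean after trimming 2% at each end (1000.12 to 1000.14). The 4 MELTF probe sets did not move together. The brightest read 32608 in the scrambled sample and 18968 and 18974 with siRNA (limma adjusted p = 0.0699), the second 8284 against 10567 and 11199 (adjusted p = 0.318), and directions below follow the arrays as labelled. Melanocyte lineage markers were bright on every array, with MLANA at 61769, 63275 and 69169 and SOX10 at 15136, 13842 and 17248. Of the 7 measured, the pigment enzyme gene TYRP1 fell from 53204 to 5022 and 12370 (limma adjusted p = 0.0374), and the tyrosinase gene TYR read 19988 against 35193 and 37555 (adjusted p = 0.0529). Marker genes of other cell types were dim in the main. The summed brightest signals of 6 leukocyte markers on the arrays were 1091, 1128 and 1323. The leukocyte antigen PTPRC stayed at or below 94.7, while CD79A, the brightest of the 6, read 278.8, 362.6 and 498.4. The sums for 8 pericyte and smooth muscle markers were 944.5, 1099 and 1004.5. The pericyte receptor PDGFRB stayed at or below 35.2, while ACTA2 read 246, 203.6 and 344.3 and DES 235.2, 249.5 and 189.6. Of 6 epithelial markers KRT18 was the brightest, at 1308, 2483 and 2148.5 (limma adjusted p = 0.142). The fibroblast marker LUM rose from 598.6 to 4850 and 4841 (limma adjusted p = 0.00719). The other fibroblast markers past the filter were not called, COL1A1 at 671.9 against 487.9 and 565.1 (adjusted p = 0.609) and DCN at 256 against 139.9 and 301.3 (adjusted p = 0.834). The part of these markers in the RGS values was not tested.

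The start regions of RGS2 and RGS1 are shown first, because their brightest probe sets had the lowest mean log2 differences (-3.19 and -1.46) among members' brightest probe sets above the bacterial controls on every array, and because the genes lie close together on chromosome 1. Each window holds the 250 bases before the RefSeq transcription start (GRCh38.p14, plus strand), at chr1:192808789-192809038 for RGS2 and chr1:192575523-192575772 for RGS1. Capitals mark CGTCA, the reverse complement of TGACG, the core of the cyclic AMP response element.
RGS2: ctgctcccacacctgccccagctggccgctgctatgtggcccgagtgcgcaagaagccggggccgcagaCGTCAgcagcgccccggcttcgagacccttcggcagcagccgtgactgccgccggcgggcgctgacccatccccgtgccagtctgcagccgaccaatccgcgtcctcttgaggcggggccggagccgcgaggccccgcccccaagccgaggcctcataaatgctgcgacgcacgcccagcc
RGS1: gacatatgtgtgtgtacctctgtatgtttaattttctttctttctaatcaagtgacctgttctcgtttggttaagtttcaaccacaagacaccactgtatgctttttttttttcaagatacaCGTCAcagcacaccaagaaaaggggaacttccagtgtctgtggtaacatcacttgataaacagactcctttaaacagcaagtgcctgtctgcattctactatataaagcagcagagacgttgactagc

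The windows differ in composition. That of RGS2 is 72.8% G and C and that of RGS1 39.2%, against a median of 58.0% over 35116 RefSeq start windows. Both hold TGACG on the reverse strand, from base -181 to -177 in RGS2 and from -128 to -124 in RGS1, counted from the base before the start as -1. Searched on both strands, TGACG is in 21.2% of all windows, so that its presence in these windows is common. RGS1 has a TATA box (TATAAA, in 10.7% of all windows) from -27 to -22, and the search found no TATAAA in the RGS2 window. RGS2 has a CCAAT box (CCAAT, 32.0% of all windows) from -89 to -85 and a GC box (GGGCGG, 42.6% of all windows) on the reverse strand from -47 to -42. The motifs do not overlap each other in these windows. RefSeq windows matched 9 of the 10 members, all but RGS20, in 23 windows because several genes have more than 1 start. TGACG was in 6 of the 23, CCAAT in 6, TATAAA in 3, GGGCGG in 11 and the E-box CACGTG (6.34% of all windows) in 2.

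**Figure D1:**
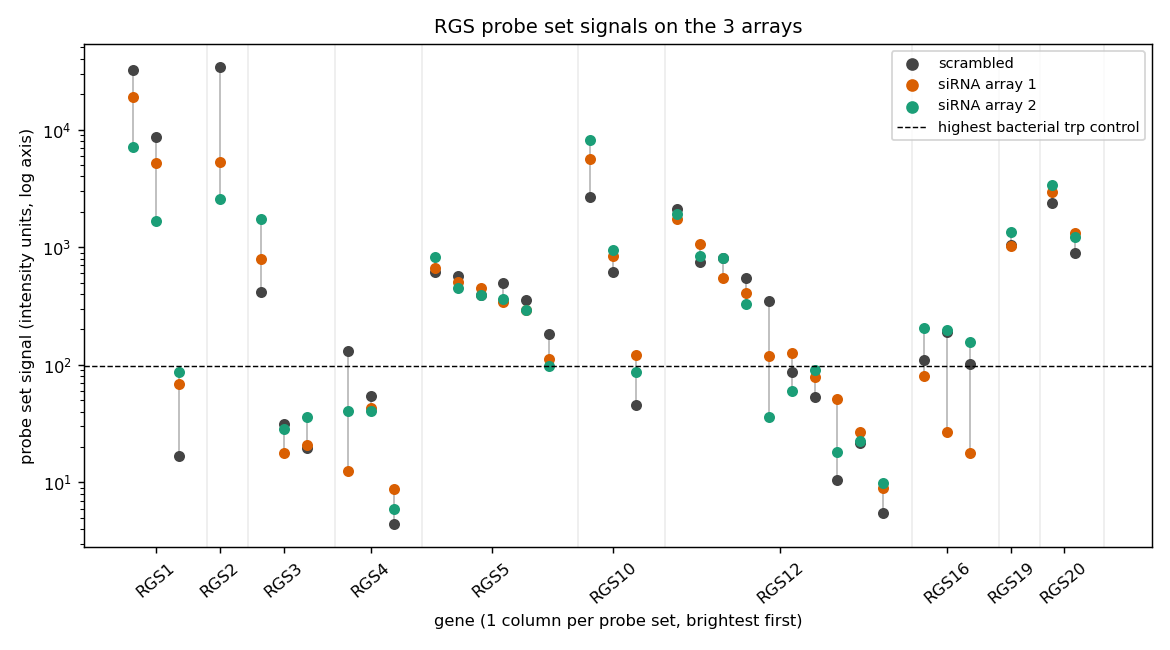
Signal of each of the 35 RGS probe sets (vertical log axis, intensity units) on the scrambled array (grey), siRNA array 1 (orange) and siRNA array 2 (green), with 1 column per probe set grouped by gene, and the highest signal of the bacterial trp control probe sets (97.2) as a dashed line. RGS2 has the widest gap among the columns that lie wholly above that line, from 34189 to 2566.

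RGS2 was the member with the lowest mean log2 difference between the siRNA arrays and the scrambled one. Its single probe set read 34189 on the scrambled array, 5322 on siRNA array 1 and 2566 on siRNA array 2. Both siRNA arrays lay far below the scrambled array, at 15.6% and 7.50% of its signal. The mean log2 difference was -3.19, with an SD of 0.73 between the siRNA arrays (n = 2), on the scale of log2(signal + 47.4) used for all differences. Ordered by this difference, RGS2 stood at position 15 from the lowest among the 27306 probe sets that passed the filter on dim signals (mean log2 value above the median, 7.74). The single arrays lay at -2.67 and -3.71, so the siRNA arrays were nearer to each other than either was to the scrambled array.

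RGS1, a regulator of Gi and Gq signalling best known from lymphocytes, also read lower on both siRNA arrays in its brighter probe sets. The brightest of its probe sets read 32094 on the scrambled array, 19049.5 on siRNA array 1 and 7076.5 on siRNA array 2. A second probe set read 8687.5, 5196 and 1674.5 on the same arrays. In both probe sets siRNA array 2 was lowest and siRNA array 1 lay between it and the scrambled array. The ratio of the siRNA array to the scrambled signal was nearly the same in both probe sets, 59.4% and 59.8% on siRNA array 1 and 22.1% and 19.3% on siRNA array 2. Mean log2 differences were -1.46 (SD 1.01) and -1.54 (SD 1.14, n = 2). In the brightest probe set the single arrays lay at -0.75 and -2.17, so siRNA array 1 was about as far from siRNA array 2 as the mean of both was from the scrambled array. The last RGS1 probe set read 16.7, 68.2 and 87.0. These are below 97.2, the highest signal of the control probe sets for the bacterial gene trp, and no fold is given for it.

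RGS3, a larger R4 member with several isoforms, read higher in the 1 probe set above the bacterial controls. That probe set read 413.3 on the scrambled array, 790.2 on siRNA array 1 and 1750 on siRNA array 2. Here the order of the arrays was the reverse of that for RGS2 and RGS1, with siRNA array 2 again farthest from the scrambled array. The log2 differences were 0.86 and 1.96 on the siRNA arrays. The other RGS3 probe sets stayed between 17.9 and 35.9 on all arrays.

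RGS4, RGS5 and RGS16 complete the R4 members. RGS4, which acts on Gi and Gq and is abundant in brain, had no probe set past the filter. Its brightest read 131.1 on the scrambled array against 12.4 and 40.7, at least 1.35-fold lower on each siRNA array when signals are raised to the bacterial control level. The others stayed between 4.4 and 54.0.

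RGS5, a marker of pericytes in many tissues, differed little. All 6 of its probe sets were above 97.2 on every array. The brightest read 618.2, 666.3 and 833.0 on the scrambled array and siRNA arrays 1 and 2, and the next read 571.6, 501.4 and 454.3. Of the 6, 4 were lower on both siRNA arrays, 1 was higher on both and 1 was mixed. Mean log2 differences ran from -0.60 to 0.25, and each was below a 2-fold change.

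RGS16, a regulator of Gi and Gq signalling, lay on both sides of the scrambled array in every probe set, as did the single RGS19 probe set and 1 of RGS5 and 2 of RGS12. Its probe sets read 191.7, 27.0 and 198.2, then 100.8, 17.8 and 157.1, then 109.8, 79.6 and 207.6. In all 3, siRNA array 1 was lowest and siRNA array 2 highest. The low reading on siRNA array 1 was at least 1.97-fold below the scrambled array in the first of these. None passed the filter. The ribosomal RNA control probe sets, by contrast, were brighter on siRNA array 1. Their median ratio to the scrambled array was 4.01 there against 0.963 on siRNA array 2, and their part in the RGS16 values was not tested.

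**Figure D2:**
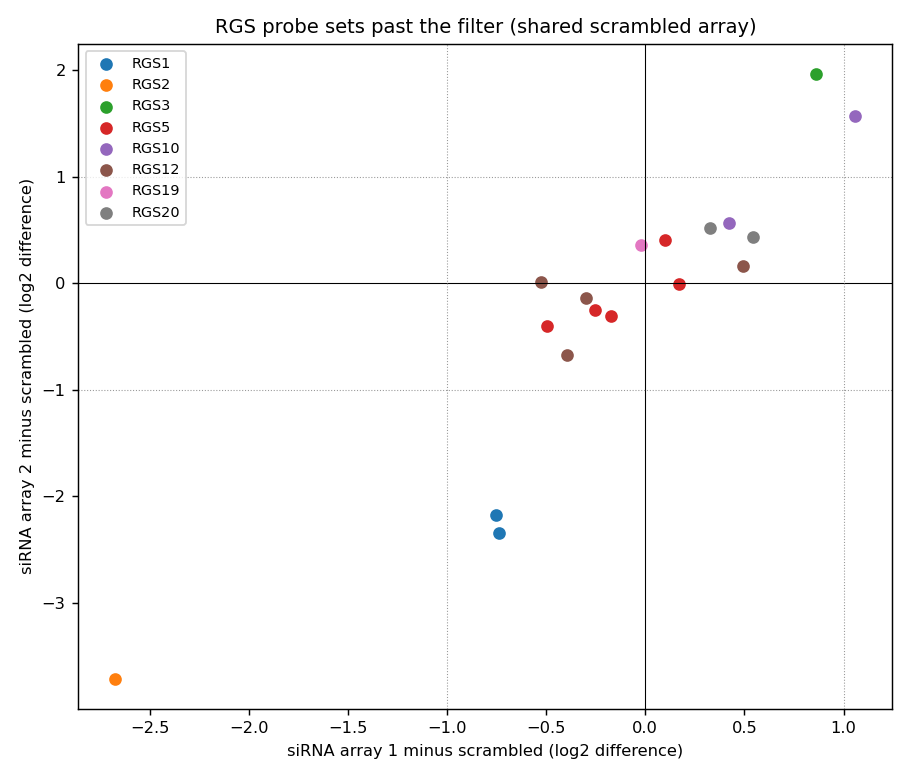
Log2 difference from the scrambled array on siRNA array 1 (horizontal) and siRNA array 2 (vertical) for the 18 RGS probe sets past the filter, coloured by gene, with dotted lines at a 2-fold change. Both axes use the same scrambled array. RGS2 lies at -2.67 and -3.71, the RGS1 probe sets pass -1 only on siRNA array 2, and RGS10 lies beyond 1 on both axes in 1 probe set.

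RGS10, a short R12 protein that acts on Gi and is known from microglia and other immune cells, read higher in its brighter probe sets. The brightest read 2700 on the scrambled array, 5681 on siRNA array 1 and 8114 on siRNA array 2. A second read 619.4, 846.8 and 939.3, and the dimmest 45.9, 120.1 and 87.3. Both siRNA arrays were above the scrambled array in each of the 3. In the dimmest, the scrambled and siRNA array 2 signals were both below 97.2, so no direction is set on siRNA array 2. The log2 differences of the brightest probe set were 1.06 and 1.57, and those of the second 0.42 and 0.57, so that the size differed between probe sets by more than their spread over the siRNA arrays (SD 0.36 and 0.10).

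RGS12, a large scaffold of the same subfamily with PDZ and Ras-binding domains, had 10 probe sets that went different ways. The brightest read 2131, 1725 and 1934 on the scrambled array and siRNA arrays 1 and 2, a mean log2 difference of -0.22. The next read 741.9, 1065 and 835.3, a mean of 0.33. A dimmer probe set read 351.6, 118.9 and 36.2, which was 2.96-fold lower on siRNA array 1 and at least 3.62-fold lower on siRNA array 2. Over all 10, 3 were lower on both siRNA arrays, 5 higher on both and 2 mixed, and 4 passed the filter. Of the 5 that were higher, 4 had signals at or below 90.0 on every array. The probe sets can detect different transcript forms, and which form each reads was not examined.

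The RZ members, which act on Gz and Gi, differed from the scrambled array by less than 2-fold on each siRNA array. RGS19, also called GAIP, read 1040 on the scrambled array against 1023.5 and 1351, so the scrambled value fell between them. RGS20, the regulator named for Gz, read 2362 against 2975 and 3399, and in its other probe set 889.2 against 1317 and 1218. Both RGS20 probe sets were higher on both siRNA arrays, with mean log2 differences of 0.42 and 0.49.

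Counted together, 13 of the 35 probe sets were lower on both siRNA arrays (29.9% of all probe sets were), 15 were higher on both (42.3% of all) and 7 were mixed. On the lower side, 3 probe sets were 2-fold or more away on each siRNA array, 1 each of RGS2, RGS4 and RGS12, where 2.19% of all probe sets were that low. On the higher side there was 1, the brightest of RGS10, where 3.68% were that high. Of these 4, the probe sets of RGS2 and RGS10 were above 97.2 on every array. Both siRNA signals of the RGS4 probe set were below that level. Its drop is bounded only at 1.35-fold or more, so a 2-fold difference is not established. With each array centred on its median, RGS10 no longer reached 2-fold on siRNA array 1 and the count on the higher side was 0. The median log2 difference was 0.06 over the 35 and 0.08 over all probe sets (0.11 over those past the filter). Centring turned the sign of 5 of the 35, all between 0.02 and 0.10 before it and none the brightest of its gene. Because the members were chosen from this comparison, nothing is read from these counts. Of the 35, 18 passed the filter and 9 did not exceed 97.2 on any array.

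The position of the members was not used to choose them. RefSeq's gene table (GRCh38.p14, used for order only) places RGS18, RGS21, RGS1, RGS13 and RGS2 one after another among the protein-coding genes of chromosome 1, with RGS4 beside RGS5 and RGS16 beside RGS8 elsewhere on it. The other members lie on chromosomes 4 (RGS12), 8 (RGS20), 9 (RGS3), 10 (RGS10) and 20 (RGS19). Within the run around RGS2, the 3 RGS13 probe sets stayed at or below 23.7, and RGS18 read 94.2, 84.4 and 153.0.

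The genes flanking RGS2 were compared with it over the 10 nearest genes past the filter on each side, a choice made after the RGS1 and RGS2 values were seen. Of the 19 that are not members, limma called 0 at an adjusted p of 0.05 (2.64% of all genes were called), and 3 had an unadjusted p under 0.05 (22.9% of all genes did). Their median log2 difference was 0.02, with 10 above 0 and 9 below. On one side of RGS2, UCHL5, a proteasome-bound deubiquitinase, read 3719 on the scrambled array against 4924 and 5293 (log2 difference 0.45 ± 0.22, SE; adjusted p = 0.302). Beyond RGS1, the phospholipase gene PLA2G4A read 1057 against 1855 and 2402 (adjusted p = 0.115) and the prostaglandin synthase gene PTGS2 read 2097 against 1671 and 1260 (adjusted p = 0.358). In the mean of both siRNA arrays none of the 19 lay as low as RGS1 or RGS2, but on siRNA array 1 alone NIBAN1 (-0.89) lay below RGS1 (-0.75). NIBAN1 was the lowest of the 19 in the mean, at -1.26 ± 0.33 (SE; adjusted p = 0.0941), the 1 neighbour called when arrays were centred (adjusted p = 0.0244, with a range of 0.0244 to 0.231 over its alternatives).

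**Figure D3:**
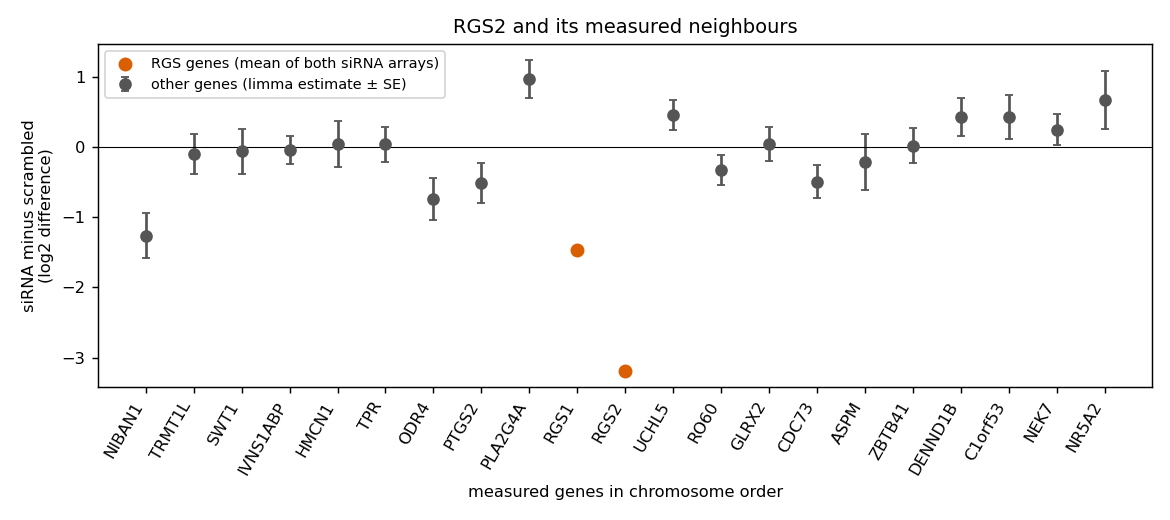
Log2 difference (siRNA minus scrambled) of RGS2 and the 10 nearest genes past the filter on each side, in chromosome order. Values are the mean of both siRNA arrays. Grey points with bars are limma estimates ± SE and orange points are RGS genes. RGS1 at -1.46 and RGS2 at -3.19 lie below the other 19, whose lowest value is -1.26.

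The genes whose differences were most like those of RGS2 were found by Euclidean distance over both log2 differences, among 12378 other genes past the filter. They were PWWP3B (distance 0.31), DGKI (0.55), IL11 (0.60), DYRK3 (0.65) and TFPI2 (0.66). PWWP3B, a chromatin-reader domain gene, read 13401.5 with the scrambled hairpin against 2160 and 1217. The kinase gene DYRK3 read 9439, 1440.5 and 1090 in its brightest probe set. Its log2 difference was -2.87 there but -1.35 as the mean of its probe sets, so its likeness rests on the brightest. The protease inhibitor gene TFPI2 read 28362.5, 3356 and 1446. IL11, a cytokine of the IL-6 family, read 1021, 137.3 and 75.1. The last of these is below 97.2, so the distance of IL11 and its place in the order are not exact. Both siRNA signals of IL11 were below the filter's level, so it was compared only because of its scrambled signal. The likeness rests on 2 differences that share the scrambled array and says nothing about control in common.

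The other RGS genes were mostly at the level of the bacterial controls. Of 23 probe sets for 11 further RGS genes, 15 did not exceed 97.2 on any array and 2 exceeded it on all. RGS17, an RZ member, read 372.9, 194.3 and 296.6 (log2 difference -0.54 ± 0.41, SE; limma adjusted p = 0.510). RGS11, which works in complex with the G beta protein GNB5, read 65.7, 170.6 and 636.1 in its brightest probe set, at least 3.39-fold higher in the geometric mean of the siRNA arrays (adjusted p = 0.202). Of the 2 genes past the filter, limma called 0 (2.64% of all genes were). RGS11 alone had an unadjusted p under 0.05 (22.9% of all genes did). The scrambled signal of RGS11 was below the filter's level, so it was tested only because of its siRNA signals.

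Genes that work with RGS proteins were taken in 8 lists, which were set with earlier results of these data known, so that their counts are no independent evidence. Of 191 genes listed, 108 passed the filter. Limma called 3 higher (1.5% of all genes were) and 7 lower (1.14% of all), or 9.26% in both directions against 2.64% of all genes, and 34 of the 108 (31.5%) had an unadjusted p under 0.05 against 22.9% of all. None of the 10 was called when the trend of the spread on mean signal was left out or when every probe set was tested. With the filter raised to the 75th percentile none was called either. GPR158 did not pass that filter and so was not tested there. The highest adjusted p over the alternatives was between 0.125 (DGKI and PDE4B) and 0.308 (SNX25), and the lowest between 3.56e-05 (PDE4B) and 0.0149 (PLCB4).

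**Figure D4:**
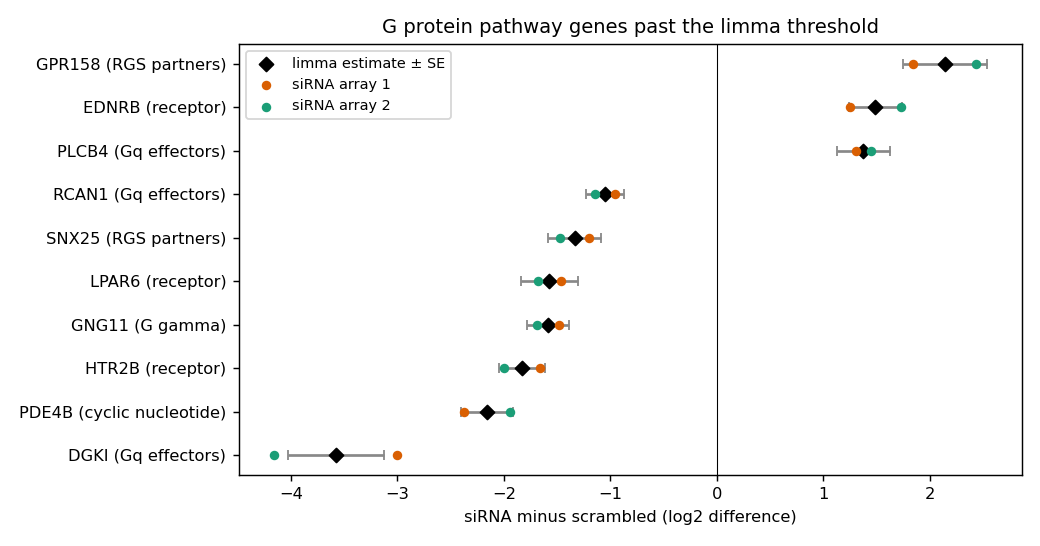
Log2 difference (siRNA minus scrambled) of the 10 listed pathway genes past limma's threshold, with the estimate ± SE as a diamond with bars, siRNA array 1 in orange and siRNA array 2 in green; each gene's list is in brackets. GPR158, EDNRB and PLCB4 lie above 0 and the other 7 below, with DGKI lowest at -3.58.

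Among 17 receptors past the filter, 1 rose and 2 fell (2.64% of all genes were called). By limma 8 had an unadjusted p under 0.05, as did 22.9% of all genes. The 8 include LPAR2, which read 107.6 against 317.5 and 500.1. Its scrambled signal was below the filter's level, so it was tested only because of its siRNA signals. HTR2B, the serotonin receptor 2B, which couples to Gq, fell from 33507 to 10584 and 8337, a log2 difference of -1.83 ± 0.21 (SE; adjusted p = 0.0198). LPAR6, a lysophosphatidic acid receptor, fell from 2705 to 949.3 and 810.1 (adjusted p = 0.0397, or 0.0509 with quantile normalization). EDNRB, the endothelin receptor of the melanocyte lineage, rose from 4471 to 10695 and 14894 (adjusted p = 0.0383). It rose in a second probe set too (1765 against 4277 and 6426, adjusted p = 0.0485), and in its last it read 1796 against 3263 and 4071.5 (adjusted p = 0.0887). The list's median was 0.13, against 0.097 over all genes, and -0.04 with arrays centred.

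Among the G proteins themselves, limma called 0 of 10 alpha subunits and 1 of 12 beta and gamma subunits (2.64% of all genes). Those with an unadjusted p under 0.05 numbered 4 and 3, where 22.9% of all genes had one. GNAS, the stimulatory subunit and the brightest alpha gene, read 59358 on the scrambled array against 49487 and 57740 (log2 difference -0.15 ± 0.17, SE; adjusted p = 0.675). The 3 Gi subunits, substrates of most RGS proteins, were singled out after their values were seen, and limma called none of them. GNAI3 read 21018 against 15008 and 15914 (adjusted p = 0.232). GNAI1 read 4421 against 2370 and 1950 (adjusted p = 0.0819) and GNAI2 read 588.8 against 1584.5 and 1371 (adjusted p = 0.0678). As the mean of each gene's probe sets, GNAI1 and GNAI2 passed, at log2 differences of -1.12 (adjusted p = 0.0387) and 1.26 (adjusted p = 0.0287). Over all alternatives their adjusted p reached 0.205 and 0.179. GNG11, a gamma subunit, fell from 25069 to 8962 and 7721, a log2 difference of -1.59 ± 0.20 (SE; adjusted p = 0.0228). Its dimmer probe set read 582.7 against 157.8 and 146.4 (adjusted p = 0.0785). GNG5, the brightest gene of that list, read 30089 against 24454 and 22424 (adjusted p = 0.303). The medians were -0.21 for the alpha list and -0.09 for the beta and gamma list, against 0.097 over all genes. With arrays centred they were, in that order, -0.38, -0.26 and -0.073.

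Downstream of Gq, among 23 effectors and calcium signalling genes past the filter, 1 rose and 2 fell (2.64% of all genes were called). In the same limma fit 7 had an unadjusted p under 0.05, as did 22.9% of all genes. The list's median was 0.28, or 0.11 with arrays centred, against 0.097 and -0.073 over all genes. PLCB4, a phospholipase C beta that Gq activates, rose from 1022 to 2600 and 2861.5 (adjusted p = 0.0442, or 0.0764 with quantile normalization) and in a dimmer probe set from 358.4 to 1321 and 1042 (adjusted p = 0.0493). DGKI, a diacylglycerol kinase that removes a product of phospholipase C, fell from 6732 to 798.8 and 333.3, a log2 difference of -3.58 ± 0.45 (SE; adjusted p = 0.0228). Its second probe set read 1504.5 against 552.4 and 88.9 (adjusted p = 0.135). RCAN1, an inhibitor of the calcium-activated phosphatase calcineurin, fell from 50493 to 25999.6 and 22797.5, a log2 difference of -1.05 ± 0.18 (SE; adjusted p = 0.0383). It fell in a second probe set as well (21511 against 8463.5 and 4884, adjusted p = 0.0465), while a dim one read 359.2, 290.8 and 189.7.

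Among 27 cyclic nucleotide signalling genes past the filter, 0 rose and 1 fell (2.64% of all genes were called). An unadjusted limma p under 0.05 was found for 5, and for 22.9% of all genes. The list's median was 0.00, or -0.17 with arrays centred, against 0.097 and -0.073 over all genes. PDE4B, a phosphodiesterase that degrades cyclic AMP, fell from 22699.8 to 4333 and 5875.5, a log2 difference of -2.16 ± 0.24 (SE; adjusted p = 0.0183). Another PDE4B probe set fell from 11960.5 to 2477 and 3151 (adjusted p = 0.0198), and a dim one read 186.9, 100 and 198.2. PRKAR1A, a regulatory subunit of protein kinase A and the brightest gene of the list, read 35105 against 26771 and 22808 (adjusted p = 0.185, or 0.0380 with arrays centred, and up to 0.565 over the other alternatives).

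Among 11 RGS partners and distant RGS-domain genes past the filter, 1 rose and 1 fell (2.64% of all genes were called). Limma's unadjusted p was under 0.05 for 5, and for 22.9% of all genes. The list's median was 0.19, or 0.02 with arrays centred, against 0.097 and -0.073 over all genes. GPR158, an orphan receptor that binds complexes of RGS proteins with GNB5, rose from 104.5 to 499.2 and 775.1 (adjusted p = 0.0470, or 0.0623 with quantile normalization and 0.0535 with a pseudocount of 100). Its scrambled signal was below the filter's level, so it was tested only because of its siRNA signals, and the adjusted p was 0.186 without the filter. SNX25, a sorting nexin with an RGS-like domain, fell from 4806 to 2070 and 1706 (adjusted p = 0.0485). A second SNX25 probe set read 1779 against 739 and 895.9 (limma adjusted p = 0.0944). The SNX25 call was the least secure, since 7 of 9 alternatives ended it. Of its 5 probe sets 3 were dim, one reading 200 against 234.3 and 288.6. Among 6 receptor kinases and arrestins limma called 0, and 1 had an unadjusted p under 0.05 (22.9% of all genes did). The median of these 6 was 0.50, or 0.33 with arrays centred. GRK5, the brightest, read 1245 against 1558 and 2038 (limma adjusted p = 0.368).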

How the data were processed

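The deposited values, linear intensities with 1 per probe set and array, came from Affymetrix Human Genome U133 Plus 2.0 arrays and were made by the authors with GCOS 1.3, per the submitters' processing notes. Its settings are not stated in the labels or files used. There were 0 value columns of other samples. From the 54675 probe sets 62 controls were left out. Genes were named from the platform annotation (1 gene for 41091 probe sets, several for 1801, none for 11721). Signals were taken as log2(signal + 47.4), the 25th percentile of all signals, which understates changes of dim probe sets. Probe sets with a mean above the median (27306, covering 12386 genes) were compared by limma 3.58.1 in R 4.3.3 (lmFit, eBayes with a trend, Benjamini-Hochberg over these probe sets at 0.05, two-sided). There is 1 residual degree of freedom, with 6.36 added by moderation, and the spread of the single scrambled array was taken to equal that of the siRNA arrays. SE values come from this model. The number of arrays limits the precision. The probe set of highest mean stood for each gene.

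The members and gene lists were chosen with earlier results of these data known. The rule for named genes took all member probe sets, in each list the called genes and the brightest gene, and the 5 genes most like RGS2. The brightest gene of 1 list is not reported here. Lists not described in full are markers: among melanocyte markers 1 of 7 measured was called (lower), among fibroblast markers 1 of 3 (higher), and among leukocyte, pericyte, endothelial and epithelial markers 0 of 3, 2, 1 and 2, with an unadjusted p under 0.05 for 0, 0, 0 and 1 by limma. Over all genes limma called 2.64%, and 22.9% had an unadjusted p under 0.05. The control level of 97.2 and the flanking genes were chosen after values were seen. Alternatives changed the pseudocount, scaling, filter, spread model, probe set choice and arrays used.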

Additional observations from a re-analysis of the deposited data

Results flagged for a closer look

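Signal outside the comparisons came from 3 control probe sets for ribosomal RNA. Divided by the scrambled array, their median was 4.01 on siRNA array 1 and 0.963 on siRNA array 2.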

How the results depend on the processing

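The call counts rested on the scaling, the filter and the model of the spread. Over all probe sets limma called 571, 324 higher and 247 lower, or 56.7% higher. With arrays centred it called 1528 (594 higher and 934 lower, 38.9% higher), with quantile normalization 357 (203 and 154), with the 75th percentile filter 9 (6 and 3), and without a filter or without the trend 1 (1 and 0). The 10 calls over the 8 pathway lists became 6 with quantile normalization, and 0 in each of the 5 lists that had any with no filter, with the 75th percentile filter or with no trend. With arrays centred the counts were 1 for alpha subunits, 2 for beta and gamma subunits, 5 for receptors, 2 for cyclic nucleotide genes and 1 for the genes flanking RGS2. RGS partners had 0 with a pseudocount of 100 or quantile normalization and 1 with robust moderation or the mean of a gene's probe sets, which also gave 2 alpha subunits. The difference of GNAS turned to 0.038 with that mean. RGS probe sets at least 2-fold higher on both arrays numbered 2 with a pseudocount of 16 and 0 with arrays centred. On 1 siRNA array alone, 5 RGS probe sets were at least 2-fold lower on either array, and 3 higher without siRNA array 1 against 1 without siRNA array 2. RGS2 kept a difference between -3.71 and -2.67 over its 6 alternatives, RGS1 in its brightest probe set between -2.17 and -0.75, and RGS10 between 1.06 and 1.57. Causes were not tested beyond the construction of each alternative. No paired analysis was possible because the scrambled group has 1 sample and its label carries no replicate number. With 1 scrambled array, its own spread is unknown, and signals near the bacterial control level set only bounds.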
